A study of Mus musculus with 136 samples.

Results

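The sites described here were the stretches of chromatin bound by SUZ12 in wild-type (WT) mouse embryonic stem cells (ESCs) and in both MCM2-2A clones that also held H3K27ac in WT cells. They were selected on these peak calls: the SUZ12 peak lists of clones 410, 439 and 442 were joined at any overlap of 1 bp or more into 8774 sites, 5366 of these had a peak in all 3 lists (common sites), and 1417 of the common sites overlapped a WT H3K27ac peak by at least 1 bp. The other 3949 common sites had no H3K27ac peak and served for comparison. All cells were E14JU ESCs of 129/Ola background grown in serum with leukemia inhibitory factor. Clone 410 was WT, and clones 439 and 442 carried MCM2-2A, a mutated histone-binding domain of the replicative helicase subunit MCM2. Each line was a single clone, and with 1 WT clone genotype and clone cannot be told apart. SUZ12 was mapped by chromatin immunoprecipitation sequencing (ChIP-seq) of crosslinked, sonicated chromatin with 3 replicates per clone, and histone marks by native ChIP-seq of MNase-digested chromatin with 2 replicates in the original experiment and 3 in a later experiment run together with rescue cells (the rescue experiment, of which only its WT lists are used). Each clone and mark had 1 deposited list that combines its replicates, so there was no replicate spread and no test between genotypes. The values that follow are descriptions with 95% Wilson intervals that cover counting error over sites only.

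SUZ12 is one of the core proteins of PRC2, the Polycomb complex whose EZH2 or EZH1 subunit methylates lysine 27 of histone H3 to H3K27me3. The same lysine can instead carry an acetyl group, H3K27ac, placed by CBP and p300 at active promoters and enhancers, and a single H3 tail cannot hold both. In ESCs most PRC2 sites are CpG islands at the starts of developmental genes, where H3K27me3 often lies on the same stretch as H3K4me3, a mark of gene starts, a state known as bivalent. A peak list pools many cells and both alleles, so marks on the same stretch of DNA need not have been on the same chromosome copy.

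The labelled cell type was checked against marker genes. H3K27ac lay within 1000 bp of the start of 9 of 10 stem cell markers, among them Pou5f1, Sox2 and Nanog, and of 1 of 10 fibroblast markers. WT SUZ12 lay at the start of 2 of the stem cell markers and 4 of the fibroblast markers.

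The starts of 6 genes show the range of DNA these sites hold, together with Esrrb, whose start is poor in CpG. The sequences are the 250 bases just upstream of an annotated start, from RefSeq on build GRCm38.p6 (mm10), written 5′ to 3′ on the gene's own strand with each CG dinucleotide in capitals. Nkx1-1, a homeobox gene, had the strongest WT SUZ12 of all 1417 sites. Tcf7l1, which encodes a DNA-binding effector of Wnt signaling, lay in a site wholly under H3K27ac. Setd7, a lysine methyltransferase gene, Sox13, a SoxD factor gene, and Dnmt3a, a de novo DNA methyltransferase gene, lay in sites whose SUZ12 ranked higher in both mutant clones than in WT, and Klf4, a core pluripotency factor gene, in a site whose SUZ12 ranked lower in both.
Nkx1-1, chr5:33434091-33434340, - strand: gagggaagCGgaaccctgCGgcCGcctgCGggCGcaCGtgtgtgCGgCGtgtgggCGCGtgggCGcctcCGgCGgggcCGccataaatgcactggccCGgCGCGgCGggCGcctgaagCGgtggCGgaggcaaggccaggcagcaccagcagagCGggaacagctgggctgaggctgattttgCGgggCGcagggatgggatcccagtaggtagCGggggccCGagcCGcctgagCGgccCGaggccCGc
Tcf7l1, chr6:72789046-72789295, - strand: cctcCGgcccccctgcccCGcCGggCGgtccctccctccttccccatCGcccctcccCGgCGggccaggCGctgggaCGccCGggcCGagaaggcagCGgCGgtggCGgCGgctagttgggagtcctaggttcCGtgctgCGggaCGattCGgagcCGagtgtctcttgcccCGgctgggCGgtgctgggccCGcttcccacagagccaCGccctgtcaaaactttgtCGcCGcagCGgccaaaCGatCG
Setd7, chr3:51560824-51561073, - strand: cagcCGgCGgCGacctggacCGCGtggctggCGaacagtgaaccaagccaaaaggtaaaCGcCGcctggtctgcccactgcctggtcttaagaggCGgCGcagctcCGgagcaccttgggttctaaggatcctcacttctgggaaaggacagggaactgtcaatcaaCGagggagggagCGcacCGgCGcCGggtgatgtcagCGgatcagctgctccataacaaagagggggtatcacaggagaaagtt
Sox13, chr1:133424213-133424462, - strand: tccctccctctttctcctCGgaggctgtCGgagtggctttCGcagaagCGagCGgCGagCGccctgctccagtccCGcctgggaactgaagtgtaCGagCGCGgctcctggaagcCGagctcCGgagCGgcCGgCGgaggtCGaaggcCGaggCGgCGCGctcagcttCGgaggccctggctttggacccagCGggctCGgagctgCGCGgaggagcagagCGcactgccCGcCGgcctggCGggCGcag
Dnmt3a, chr12:3806730-3806979, + strand: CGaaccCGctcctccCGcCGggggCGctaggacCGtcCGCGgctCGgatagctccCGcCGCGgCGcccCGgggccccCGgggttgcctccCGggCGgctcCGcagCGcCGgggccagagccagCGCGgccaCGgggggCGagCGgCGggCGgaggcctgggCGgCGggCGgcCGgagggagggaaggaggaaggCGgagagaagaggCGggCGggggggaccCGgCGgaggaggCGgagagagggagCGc
Klf4, chr4:55532476-55532725, - strand: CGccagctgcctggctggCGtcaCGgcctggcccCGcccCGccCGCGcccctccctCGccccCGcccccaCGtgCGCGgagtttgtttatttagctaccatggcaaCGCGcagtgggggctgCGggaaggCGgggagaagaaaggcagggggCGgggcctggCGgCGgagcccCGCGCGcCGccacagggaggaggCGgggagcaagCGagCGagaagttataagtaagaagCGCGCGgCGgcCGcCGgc
Esrrb, chr12:86421394-86421643, + strand: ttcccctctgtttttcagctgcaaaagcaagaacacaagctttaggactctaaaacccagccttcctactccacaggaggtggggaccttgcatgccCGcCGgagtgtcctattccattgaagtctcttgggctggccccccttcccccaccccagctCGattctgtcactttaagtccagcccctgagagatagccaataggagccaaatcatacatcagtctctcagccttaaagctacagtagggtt
The Nkx1-1 stretch held 30 CG dinucleotides, Tcf7l1 29, Setd7 17, Sox13 31, Dnmt3a 38 and Klf4 32, against 3 in Esrrb. The Tcf7l1 and Setd7 stretches overlapped an H3K27ac peak, and the other 5 did not.

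Gene starts in or near these sites were rich in CpG, as were those of the other common sites. Over 300-base promoters (250 bases before to 50 after the start) of genes within 1000 bp of a site, the median GC content was 65.7% in 1058 promoters at sites with H3K27ac, 64.7% in 2409 at common sites without it and 56.3% in all 21263 promoters. The median number of CG dinucleotides was 24, 21 and 13 in the same order. Short motifs were searched as exact letters on both strands of these 300 bases. The GC box GGGCGG was in 70.2% (67.4 to 72.9) of promoters at sites with H3K27ac, 67.7% (65.9 to 69.6) at other common sites and 46.2% of all promoters. TATAAA, the core of the TATA box, was in 6.99% (5.61 to 8.69), 7.93% (6.92 to 9.08) and 12.6%. CCAAT was in 33.1% (30.3 to 36.0), 30.0% (28.2 to 31.8) and 38.2%, and the ETS-type motif CCGGAAGT in 1.89% (1.23 to 2.90), 1.08% (0.738 to 1.58) and 5.15%. The E-box CACGTG was in 8.98%, 8.01% and 7.84%, TGACGTCA, a cyclic AMP response element, in 1.70%, 1.87% and 2.23%, and the POU-type motif TTTGCAT in 4.06%, 2.95% and 4.23%. The intervals of acetylated and other common sites overlapped for each of these first 4 motifs. Both groups were richer in the GC box and poorer in the other 3 than all promoters were. Starts of 1 gene can share bases, so these promoters are not independent.

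Several sites also held microRNA hairpins. A hairpin lay in 17 of the 1417 sites (1.20%) and in 30 of the 3949 other common sites (0.760%). Of the 17, 4 were in or beside homeobox or neural loci known as PRC2 domains, and their mature RNAs are given with the seed (bases 2 to 8) in capitals, from RefSeq on the same build.
mmu-miR-196a-5p, chr15:102973365-102973386, + strand: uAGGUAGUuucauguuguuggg
mmu-miR-196b-5p, chr6:52230129-52230150, - strand: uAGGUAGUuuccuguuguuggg
mmu-miR-10a-5p, chr11:96317186-96317208, + strand: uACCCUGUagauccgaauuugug
mmu-miR-9-5p, chr7:79505279-79505301, + strand: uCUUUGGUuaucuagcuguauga
The 2 miR-196 RNAs shared the seed AGGUAGU, and came from the HoxC and HoxA sites. At the HoxA site holding Mir196b SUZ12 fold enrichment was 83.9 in WT, 102 in clone 439 and 85.9 in clone 442, and at the HoxC site holding Mir196a-2 it was 66.3, 98.1 and 60.8. At the HoxB site of Mir10a it was 117, 100 and 97.1, and at the site of Mir9-3, a gene of a neural microRNA, 54.8, 64.8 and 40.8. H3K27ac covered 2.80% or less of each of these 4 sites. The opposite case was the site of Mir7655, inside the gene Mllt10, where 59.7% of the bases were under H3K27ac and SUZ12 was 11.8 in WT, 6.71 in clone 439 and 7.60 in clone 442.

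H3K27ac was more frequent at weakly than at strongly bound common sites. SUZ12 strength is given as fold enrichment, the height of a site's strongest peak over local background. Its median at the 1417 sites was 12.2 in WT (quartiles 7.61 and 24.4), 14.6 in clone 439 and 14.0 in clone 442. At the other common sites it was 18.3 in WT (9.88 and 35.8), 20.7 in clone 439 and 18.7 in clone 442. The quartiles overlapped widely, and the sites with H3K27ac were the weaker group in each of the 3 lists. Because lists differ in scale, strength was also ranked among the 5366 common sites of each list, from 0 (weakest) to 1 (strongest). The mean WT rank was 0.422 ± 0.289 (SD over sites) with H3K27ac and 0.528 ± 0.283 without, a difference of -0.11 (95% interval over sites -0.12 to -0.089). H3K27ac was present at 42.1% (38.0 to 46.3) of the weakest of 10 equal groups of common sites, was lowest at 18.1% (15.1 to 21.6) in group 7 and was at 20.9% (17.6 to 24.5) in group 10, the strongest.

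**Figure D1:**
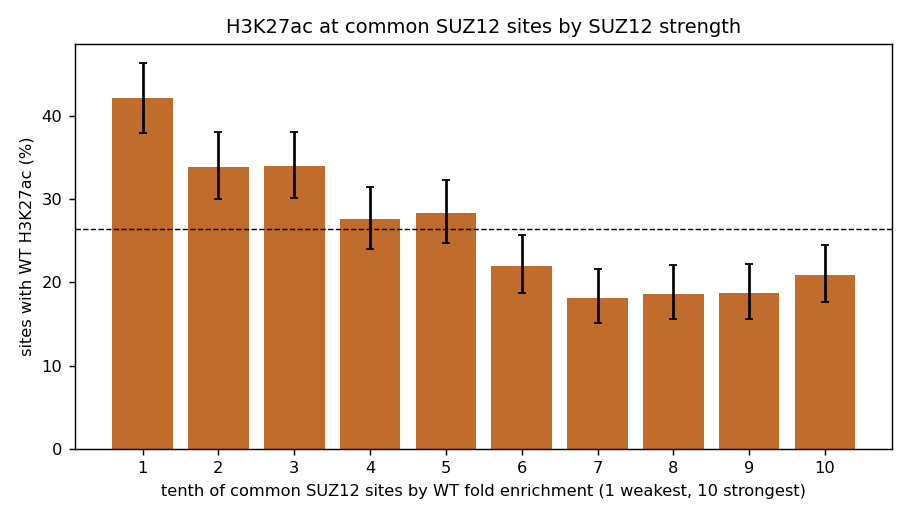
Share of common SUZ12 sites with WT H3K27ac (y axis, percent) in each of 10 equal groups of the 5366 common sites by WT SUZ12 fold enrichment (x axis, 1 weakest to 10 strongest). Bars are shares with 95% Wilson intervals and the dashed line is the share over all common sites. The bars go from 42.1% in group 1 to 20.9% in group 10, and the lowest, 18.1%, is group 7.

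Width did not separate the groups in the same way. The median site spanned 3055 bp with H3K27ac and 3152 bp without, and the quartiles were 2173 and 4531 bp against 2214 and 4475 bp. The sign of this small difference turned when an equal number of SUZ12 peaks was taken from each list. The maximum was 66497 bp with H3K27ac and 33680 bp without. The widest 4 were Hox domains, which pattern the body axis. These were HoxA from Hoxa3 to Hoxa11 (66497 bp, chr6:52188801-52255297), HoxC (59535 bp), HoxD with Evx2 (54460 bp) and HoxB from Hoxb3 to Hoxb8 (45255 bp). In each, H3K27ac covered between 0.413% and 2.80% of the bases.

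Acetylation usually took up a small stretch of a site. One H3K27ac peak overlapped 918 of the 1417 sites, 2 overlapped 331 and 3 or more 168, with 11 at most. The peaks covered a median of 425 bp, or 14.6% of the site (quartiles 7.25% and 28.4%). H3K27ac lay over at least 50% of the site in 140 of them (9.88%) and over every base in 6. At the other end, 206 sites had under 5% of their bases under H3K27ac, and 17 were overlapped by fewer than 50 bp in all. An H3K27ac peak ran out beyond the site in 301 (21.2%). The summit of the strongest H3K27ac peak was inside the site in 1325 of 1417 (93.5%).

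These H3K27ac peaks were spread over the whole range of that mark's strength. The strongest H3K27ac peak of a site had a median fold enrichment of 4.59 (quartiles 3.60 and 6.52), where the 128247 peaks of the WT list had a median of 3.98 (3.19 and 5.89). It was below the list's median in 484 sites (34.2%) and at or above the list's upper quartile in 430 (30.3%). In all, 1.74% of WT H3K27ac peaks were in these sites.

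The 1-bp rule divided sites that lay close to its limit. The site of Eepd1 was overlapped by 1 bp (SUZ12 15.1 in WT, 12.6 in clone 439 and 11.6 in clone 442) and that of Eef1d and Tigd5 by 5 bp (13.9, 16.3 and 19.03). Just outside were the site of Ppm1h, 2 bp from an H3K27ac peak (3.88, 5.43 and 3.55), and that of Ankrd13b, 12 bp away (25.6, 26.9 and 28.1). Of the 3949 other common sites 194 (4.91%) had an H3K27ac peak closer than 1000 bp, and their median gap to the nearest was 18570 bp.

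The summits of the marks were placed differently around gene starts. For 789 sites with a single gene of known strand within 1000 bp, the WT SUZ12 summit lay a median of 379 bp downstream of the start (quartiles 105 and 703 bp), and downstream in 80.6% (77.7 to 83.2). The strongest H3K27ac summit lay at a median of 89 bp (-372 and 449 bp), and downstream in 53.0% (49.5 to 56.4), that is about as often before the start as after it. Strongest H3K4me3 summits were at 140 bp (-271 and 429 bp) and downstream in 63.4% (60.0 to 66.7). At other common sites H3K4me3 summits were downstream of the start in 73.8% (71.9 to 75.7) and SUZ12 summits in 84.6% (83.0 to 86.1). The H3K27ac and SUZ12 summits of a site were a median of 628 bp apart, and within 500 bp in 41.5% of sites.

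**Figure D2:**
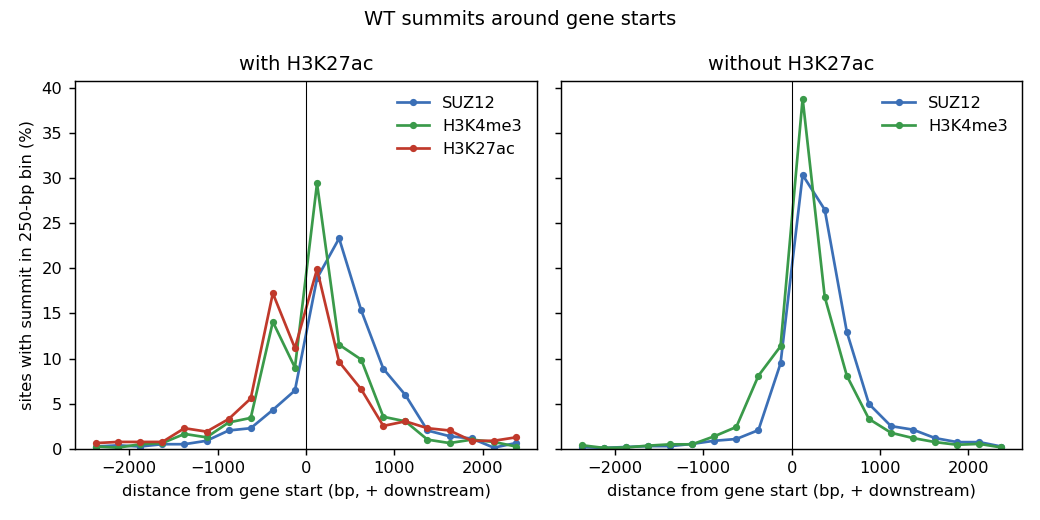
Position of WT summits (x axis, bp from the gene start, positive downstream) as the percent of sites with a summit in each 250-bp bin (y axis), at common SUZ12 sites with H3K27ac (left, 789 sites) and without (right). Lines are SUZ12, H3K4me3 and, on the left, H3K27ac. On the left SUZ12 peaks downstream of the start, while H3K27ac and H3K4me3 each have a maximum before the start and another after it.

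Pooled over sites, H3K27me3 was less complete over the acetylated bases than over the rest. Wide sites add most of the other bases, so differences within a site and between sites cannot be told apart here. In 744 sites H3K27me3 covered the whole site. In the 917 sites with H3K27me3 in the original experiment, 90.7% of acetylated bases and 98.0% of other bases lay under H3K27me3. In the 1173 sites with H3K27me3 in the rescue experiment the values were 92.7% and 98.4%. H3K4me3 went the other way and covered 98.8% of acetylated bases and 63.0% of the others. Both H3K27ac and H3K4me3 come from MNase-digested chromatin of the same clone.

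Nearly every site carried H3K4me3 and most carried H3K27me3. H3K4me3 was present at 1416 of 1417 (99.9%, 99.6 to 99.99), and the exception was a site inside Gsg1l (chr7:126053147-126055357), with 2 H3K27ac peaks and SUZ12 at 9.06 in WT, 8.13 in clone 439 and 10.2 in clone 442. At other common sites H3K4me3 was at 98.3% (97.9 to 98.7). The strongest H3K4me3 peak of a site had a median fold enrichment of 70.9 (quartiles 53.6 and 84.7) with H3K27ac and 50.05 (35.8 and 65.2) without. This gap was seen in each of 4 equal groups of the common sites by mean SUZ12 rank over the 3 lists: the medians were 73.8, 72.7, 72.2 and 60.4 with H3K27ac and 43.7, 50.7, 52.0 and 50.8 without, from the weakest to the strongest group.

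H3K27me3 was at 64.7% (62.2 to 67.2) of the sites with H3K27ac and 58.8% (57.2 to 60.3) of the others, a difference of 5.94 percentage points (2.99 to 8.83). The rescue list, which is longer (63473 against 41869 regions), gave 82.8% (80.7 to 84.7) and 77.7% (76.4 to 79.0). With either experiment counted, 91.1% of acetylated sites had H3K27me3, and 126 had it in neither. Sites with all of H3K4me3, H3K27me3 and H3K27ac in the original lists numbered 916. H3K9me3, a mark of heterochromatin, was at 25 sites (1.76%, 1.20 to 2.59) and at 2.38% (1.95 to 2.90) of the other common sites, and the interval of the difference, -1.39 to 0.317 percentage points, included 0. The 5 with the strongest SUZ12 among these 25 were the sites of Dlx1 and Dlx2, Vwc2, a stretch in Zic4 (chr9:91376010-91390774), the HoxC site and Esrrb. SUZ12 was 104 in WT, 83.9 in clone 439 and 61.7 in clone 442 at Dlx1 and Dlx2, forebrain homeobox genes, 83.2, 67.6 and 45.6 at Vwc2, and 72.9, 62.2 and 42.3 at the Zic4 stretch. The raw value was highest in WT and lowest in clone 442 at these 3, but lists differ in scale. Their ranks were 0.987, 0.961 and 0.941 in WT and 0.961, 0.884 and 0.859 in clone 442. The HoxC site was instead highest in clone 439 (66.3, 98.1 and 60.8), and Esrrb was lowest there (61.7, 37.5 and 39.5).

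The share of a site under H3K27ac went with weaker and narrower SUZ12 binding. The sites were put in 4 groups of equal size by that share. In the group with the least (at most 7.25% of the site) the median width was 4660 bp and the mean WT rank 0.634 ± 0.283 (SD over 355 sites). In the next groups the mean rank was 0.430, 0.351 and, where at least 28.4% of the site was acetylated, 0.271 ± 0.227 with a median width of 2375 bp. Width enters both measures, since a share of a site is taken over its width. H3K27me3 was at 63.9% (58.8 to 68.8), 68.6% (63.6 to 73.3), 65.5% (60.4 to 70.3) and 60.7% (55.6 to 65.7) of these groups, with overlapping intervals throughout. A gene start was within 1000 bp of 85.4% (81.3 to 88.7) of the least and 71.5% (66.6 to 75.9) of the most acetylated.

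The 10 sites with the strongest WT SUZ12 each had 1 to 3 H3K27ac peaks that covered a small share of the site. At Nkx1-1 (chr5:33428338-33438643) SUZ12 was 166 in WT, 128 in clone 439 and 82.6 in clone 442, with 2.84% of the site under H3K27ac. Skor1, a corepressor gene of neurons, had 147, 114 and 65.5, and Olig2, a regulator of oligodendrocytes and motor neurons, had 130, 112 and 80.1. The HoxD site with Evx2 had 127, 105 and 62.2. In each of these 4 the raw value was highest in WT and lowest in clone 442. Their ranks, however, stayed at 0.962 or above in every list, so the order of sites hardly moved. HoxB followed, then Foxa2, a regulator of endoderm (113, 81.4 and 72.7), Grid1, a glutamate receptor gene (112, 99.1 and 86.9), Irx3, a homeobox gene (110, 79.4 and 101), Sox21, a neural factor gene (109, 102 and 74.5), and Wt1, a kidney and gonad regulator (105, 97.6 and 74.0). H3K27ac covered at most 7.21% of any of the 10, with a fold enrichment of at most 4.85. Foxa2 and Irx3 had no H3K27me3 region in the original or the rescue experiment, while the HoxD site had one in the original experiment only.

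The 10 sites with the strongest H3K27ac were mostly of other kinds of gene and of medium or weak SUZ12. Rdh10, a retinol dehydrogenase gene next to the ribosomal protein gene Rpl7, had H3K27ac at 35.9 and SUZ12 at 19.8 in WT, 28.7 in clone 439 and 24.4 in clone 442. Eef1d, a translation elongation factor gene, had H3K27ac at 34.2 that touched the SUZ12 site by 5 bp. Dgat2, of triglyceride synthesis, had 28.0 over 6.05% of the site. Exoc3l and its neighbor followed with 28.0, then Map7d1, a microtubule-associated protein gene, with 26.3, Lrrc3 with 25.7 and Ssbp3 with 25.4. Bahcc1, which encodes a reader of H3K27me3, differed in that 5 H3K27ac peaks, the strongest at 25.1, covered 72.1% of its site. SUZ12 there was 25.1 in WT, 30.8 in clone 439 and 36.5 in clone 442. Frat1, a binder of GSK3, had 23.9. Cited2, which binds CBP and p300, had 2 peaks, the stronger at 21.4, over 51.9% of a site with SUZ12 at 6.22, 8.68 and 10.5. The summit of the strongest H3K27ac peak lay outside the site at Rdh10, Eef1d, Exoc3l, Lrrc3, Ssbp3, Bahcc1 and Cited2. It lay inside at Dgat2, Map7d1 and Frat1. WT ranks of these 10 sites ran from 0.0103 to 0.656.

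A protein-coding gene start was within 1000 bp of 1099 sites (77.6%, 75.3 to 79.7) against 70.4% (68.9 to 71.8) of the other common sites. Genes of unknown strand were placed by either end, so some of these may be gene ends. That applied to 258 of the sites with H3K27ac, and 59.4% of all 1417 had a start of known strand within 1000 bp. In all 3964 genes had a start at a common site, and for 1188 (30.0%, 28.6 to 31.4) at least 1 such site had H3K27ac. That share is the yardstick for the lists below, each given as the genes at a site with H3K27ac among the list's genes at a common site. The lists were chosen with earlier results of these data known, their genes can share a site, and no list was tested.

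Few pluripotency genes had a start at a common site. Of 30 genes of naive and general pluripotency, 4 had a start at a common site and all 4 at one with H3K27ac. Klf4 had SUZ12 at 11.0 in WT, 8.53 in clone 439 and 7.36 in clone 442, with 74.2% of the site under H3K27ac. Esrrb, an orphan nuclear receptor gene, had 61.7, 37.5 and 39.5, with 3.17% of its site under H3K27ac and no H3K27ac peak within 1000 bp of its start. Socs3, a feedback inhibitor of leukemia inhibitory factor signaling, had 8.50, 7.02 and 8.36, and Prdm14 had 17.5, 21.9 and 9.92. WT was above both clones at Klf4, Esrrb and Socs3, and between them at Prdm14.

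Genes of the formative and primed states, which ESCs enter as they leave the naive state, were mostly at acetylated sites: 15 of 17 (88.2%, 65.7 to 96.7). Pou3f1, a POU factor, had SUZ12 at 74.5, 60.3 and 52.8 in WT, clone 439 and clone 442. Lef1, a Wnt effector, had 73.4, 68.8 and 43.8 with H3K27ac over 51.7% of the site. The mesoderm factor T had 72.0, 63.9 and 54.7, and Fst, which binds activin, 57.0, 80.8 and 68.6. The first 3 of these were highest in WT and Fst lowest there. Otx2, which drives exit from the naive state, had H3K27ac over 62.5% of its site, Myc over 95.7% and Sox4 over 68.1%, while Fgf5, a marker of the formative state, had 8.97%. Dnmt3a had SUZ12 at 8.38 in WT, 15.8 in clone 439 and 20.1 in clone 442. Cdh2 and Sox3 were the 2 at sites without H3K27ac.

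Of 38 Hox genes 32 (84.2%, 69.6 to 92.6) were at acetylated sites, but these 32 lay in 9 sites. Each of the 4 widest Hox sites had 1 to 4 H3K27ac peaks. Hoxb13 had the weakest of the 9 with 19.9 in WT, 24.1 in clone 439 and 18.8 in clone 442. Hoxa13, Hoxd3, Hoxb9, Hoxc4, Hoxd1 and Hoxb1 were at common sites without H3K27ac.

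Lineage regulators were near the yardstick. Of neural regulators 21 of 59 (35.6%, 24.6 to 48.3) were at sites with H3K27ac. Olig2, Irx3 and Sox21 had the strongest SUZ12, followed by Dlx1 and Dlx2, which shared a site with 104, 83.9 and 61.7. Neurog2 and Nkx2-1 were among the 38 without. Of mesoderm and endoderm regulators 14 of 50 (28.0%, 17.5 to 41.7) were acetylated, led by Foxa2, by Cdx2 of the trophectoderm and intestine (102, 106 and 60.9), by Tbx18 (99.0, 98.6 and 81.5) and by Nkx2-5, a heart factor (93.4, 84.3 and 60.1). Gata4, Gata6 and Sox17 were among the 36 without.

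Signaling genes are given by their role. Of Wnt genes 15 of 47 (31.9%, 20.4 to 46.2) were at acetylated sites, and among the ligands these were Wnt5a (98.6 in WT, 98.6 in clone 439 and 44.7 in clone 442), Wnt3 and Wnt10a, whereas 15 further ligands were at common sites without H3K27ac. The receptors Fzd2, Fzd4, Fzd7, Fzd8 and Fzd10, the coreceptor Lrp5, and the nuclear effectors Lef1, Tcf7l1 and Tcf7l2 were the others, with the feedback target Axin2, the target Sp5 and the secreted antagonist Sfrp2. Fzd8 had SUZ12 at 56.8, 56.5 and 47.7, and Fzd2 at 50.8, 63.7 and 59.4. Axin2, which reports on active Wnt signaling, had 22.6, 20.3 and 28.6 with an H3K27ac peak of 12.8. In the Bmp, Nodal and TGF-beta pathway, 14 of 34 (41.2%, 26.4 to 57.8) were acetylated: the ligands Bmp4, Bmp7, Bmp8a, Bmp8b and Inhbb, the receptors Acvr1, Acvr2a, Bmpr2 and Tgfbr1, the antagonist Fst, the inhibitory Smad6 and the target genes Id2, Id3 and Id4. Bmp7 was the strongest with 62.5, 59.4 and 40.6, Id4 had 61.0, 61.3 and 32.0, and Bmpr2 the weakest with 4.97, 8.53 and 8.44. Of Fgf and ERK genes 8 of 24 (33.3%, 18.0 to 53.3) were acetylated. These were the ligands Fgf5 and Fgf11, the receptors Fgfr1 and Fgfr2, and the ERK inhibitors Dusp4, Dusp7, Dusp9 and Spred1. Dusp4 was the strongest with 42.0, 44.6 and 35.2, then Fgfr2 with 40.5, 51.6 and 31.5 and Fgf5 with 38.1, 55.3 and 39.3. Clone 439 was highest and clone 442 within the range of the other 2 or lowest at these 3. Spred1 was the weakest with 5.50, 5.71 and 8.94, and H3K27ac covered 85.6% of its site. Of Hedgehog and Notch genes it was 12 of 24 (50%, 31.4 to 68.6), with the ligands Dhh, Dll1 and Jag1 and the receptors Ptch1, Boc and Notch2. Dhh had SUZ12 at 64.7, 62.7 and 58.0, and Ptch1 at 60.7, 49.0 and 59.0 with H3K27ac over 47.7% of the site. Hes5, a Notch target, had 36.1, 46.5 and 43.7. Shh, Ihh and Dll4 were at common sites without H3K27ac.

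The smaller lists are given by their members. Of Polycomb subunit genes 10 were at common sites and 4 of these with H3K27ac: Bcor (16.0 in WT, 17.4 in clone 439 and 14.5 in clone 442), Pcgf5, Cbx2 and Kdm2b, all of PRC1. Pcgf5 had 13.4, 14.0 and 13.0, and Cbx2 had 10.7, 14.6 and 14.8. The Kdm2b site, with SUZ12 at 6.0, 5.78 and 8.40, was wholly under H3K27ac. Of cell cycle inhibitors 5 of 6 were acetylated, Cdkn1a, Cdkn1c, Cdkn2c, Gadd45b and Gadd45g, and Cdkn2a was not. Cdkn2c had SUZ12 at 46.9, 60.0 and 42.4, Gadd45g 36.2, 38.5 and 34.5, and Cdkn1a, a p53 target, 6.73, 7.45 and 5.45. Clone 439 was highest and clone 442 lowest at these 3, while at Gadd45b (14.0, 9.67 and 11.7) WT was highest and at Cdkn1c (58.1, 64.4 and 59.5) WT was lowest. Of 27 imprinted genes found in the annotation 16 were at common sites and 7 with H3K27ac, led by Cdkn1c (58.1, 64.4 and 59.5) and Gnas (50.5, 66.8 and 68.3), then Phlda2 (23.6, 26.8 and 27.1) and Magel2 (22.5, 23.8 and 25.6). The raw value was lowest in WT at all 4, as was the median of all common sites (16.2, 18.8 and 17.3). By rank, the imprinted genes with H3K27ac had a median shift of -0.023 to clone 439 and 0.055 to clone 442, and none rose. Of germline genes it was 1 of 7, Tfap2c, a primordial germ cell factor, with 38.8, 45.9 and 36.0.

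**Figure D3:**
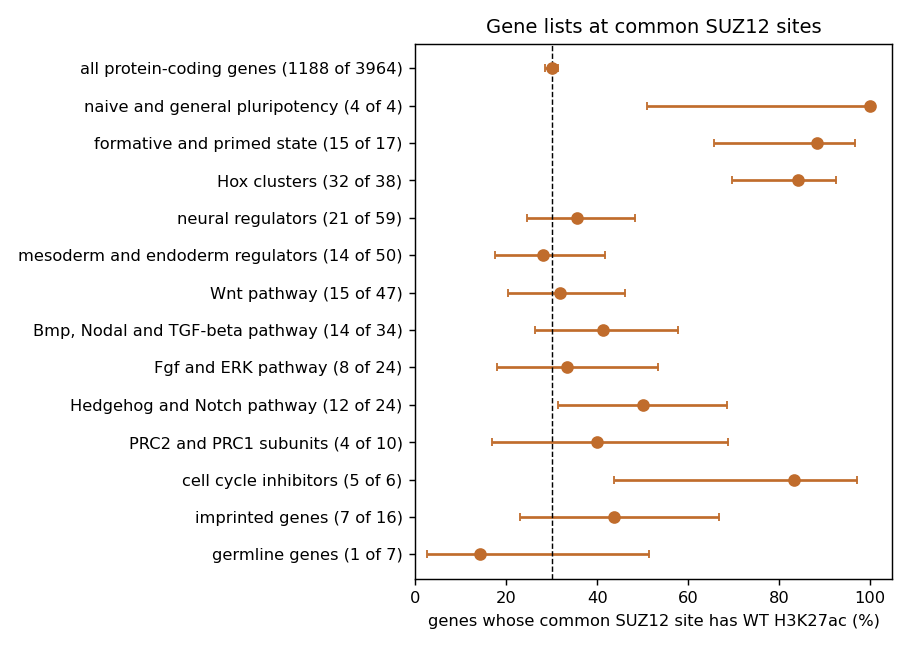
Percent of each list's genes at common SUZ12 sites whose site had WT H3K27ac (x axis), with 95% Wilson intervals, for all protein-coding genes and 13 lists (y axis, with the numbers). The dashed line is the 30.0% of all genes. The formative and primed list (15 of 17) and the Hox clusters (32 of 38, in 9 sites) lie farthest to the right among lists of over 10 genes.

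Sites with H3K27ac ranked slightly higher in the mutant clones than in WT relative to other common sites. Both comparisons use the same WT list. From WT to clone 439 the mean rank shift was 0.0098 ± 0.109 (SD over sites) with H3K27ac and -0.0035 ± 0.0976 without, a difference of 0.013 (95% interval over sites 0.0069 to 0.020). From WT to clone 442 it was 0.021 ± 0.126 and -0.0076 ± 0.113, a difference of 0.029 (0.022 to 0.036). Between the mutant clones, which share the genotype, the ranks of acetylated sites were higher in clone 442 than in clone 439 by 0.012 on average, and those of other sites lower by a mean of -0.0041. The shift to clone 439 was thus smaller than the difference between clones of the same genotype. Within 4 groups by mean SUZ12 rank, the shift to clone 442 was 0.034, 0.015, 0.033 and -0.0048 from weakest to strongest with H3K27ac and -0.012, -0.010, -0.0089 and -0.00084 without. The strongest group thus showed no upward shift with H3K27ac.

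A site is said to rise or fall here when its rank changed by over 0.1 in the same direction in both mutant clones. Among all common sites 7.64% rose and 5.55% fell. Of the 1417 sites with H3K27ac, 156 rose (11.0%, 9.48 to 12.7) and 73 fell (5.15%, 4.12 to 6.43). Of the others 6.43% (5.71 to 7.24) rose and 5.70% (5.02 to 6.46) fell. The share that rose was above the background, and the pooled share that fell was close to it. In 142 of the 156 and 61 of the 73 the smaller shift also exceeded the difference between the mutant clones. Among all common sites this held for 379 of 410 rises and 257 of 298 falls, so it did not set the acetylated sites apart. A weak site has more room to rise than to fall, and acetylated sites were weaker, so the shares are also given within the 4 groups by mean SUZ12 rank: from weakest to strongest, 10.7%, 14.5%, 14.3% and 2.36% rose with H3K27ac and 6.0%, 10.8%, 6.30% and 3.13% without. In the same groups 4.41%, 9.14%, 4.78% and 0.787% fell with H3K27ac and 11.4%, 8.34%, 4.10% and 0.368% without. In the weakest group acetylated sites thus rose more often and fell less often than the others, while in the strongest group few sites of either kind moved. From weakest to strongest group, mean WT rank was 0.123, 0.356, 0.601 and 0.876 with H3K27ac and 0.147, 0.377, 0.626 and 0.868 without. The grouping thus did not fully even out the room to rise. By the share of the site under H3K27ac, from least to most, 7.32%, 9.89%, 13.8% and 13.0% rose and 3.94%, 4.80%, 5.37% and 6.50% fell. Mean WT rank also differed, from 0.634 in the least to 0.271 in the most acetylated group, and these shares were not split by strength.

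**Figure D4:**
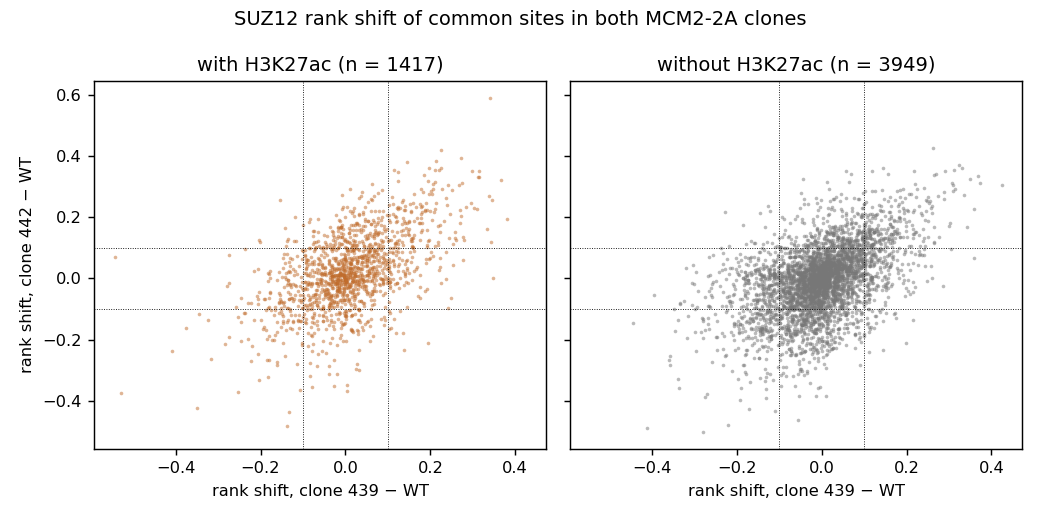
SUZ12 rank shift of each common site from WT to clone 439 (x axis) and to clone 442 (y axis), for the 1417 sites with H3K27ac (left) and the 3949 without (right). Each point is a site and dotted lines mark changes of 0.1. Both axes use the same WT list. In all, 11.0% of points on the left and 6.43% on the right lie beyond both dotted lines at the upper right.

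The 8 largest rises were at 7 sites with a gene start and 1 without. The site of Arid1b, a subunit gene of the BAF remodeling complex, had SUZ12 at 7.95 in WT, 20.2 in clone 439 and 33.8 in clone 442, and H3K27ac over 52.6% of it. Megf9 had 8.24, 22.8 and 18.5, and Setd7 9.34, 23.1 and 22.6. Both clones were above WT at each, with clone 442 highest at Arid1b and clone 439 highest at the others. Sox13 had 12.4, 31.9 and 29.0. Ptpn21, a tyrosine phosphatase gene, had 9.95, 24.8 and 22.9, and the site shared by Shc2, an adaptor of receptor tyrosine kinases, and Odf3l2 had 7.60, 17.5 and 18.1. Fos, the immediate early AP-1 subunit gene, had 7.80, 17.0 and 20.6 with a strong H3K27ac peak of 19.8. The remaining site, chr4:146239866-146240354, was 489 bp wide, 41109 bp from the nearest gene Zfp600, and had 3.42, 11.5 and 11.6. Of the 8, 6 carried H3K27me3 in the original experiment, and Arid1b and the site near Zfp600 did not.

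The 8 largest falls included 5 sites without a gene start within 1000 bp. Near Tbx3, a T-box gene of ESC self-renewal, the site chr5:119660483-119664999, 5534 bp from the gene, had SUZ12 at 19.5 in WT, 6.10 in clone 439 and 9.15 in clone 442, and a second site in Tbx3 (chr5:119680107-119681204), wholly under H3K27ac, had 8.66, 5.16 and 5.05. A site in the HoxB region 18168 bp from Hoxb9 (chr11:96251453-96253161) was 98.0% acetylated and had 15.3, 8.36 and 6.44. The WT value was the highest of the 3 at each. The Mllt10 site with Mir7655 and Rbm47, an RNA-binding protein gene (14.7, 10.1 and 7.31, 96.8% acetylated), came next. A site 113407 bp from Tcl1 (chr12:105336145-105338997) had 19.02, 8.76 and 11.7. Abhd6, a lipase gene, had 12.2, 9.06 and 7.76, and Tasor2, a paralog of a HUSH silencing complex subunit, had 9.91, 4.96 and 7.03. H3K27ac covered at least 50% of 4 of these 8 sites and 1 of the 8 largest rises. Over all members that moved, it covered at least 50% of 16.4% (9.66 to 26.6) of the 73 that fell and 7.05% (3.98 to 12.2) of the 156 that rose, with overlapping intervals, and the median acetylated share was 19.5% and 17.6%. A gene start was within 1000 bp of 65.8% (54.3 to 75.6) of those that fell and 83.3% (76.7 to 88.4) of those that rose.

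**Figure D5:**
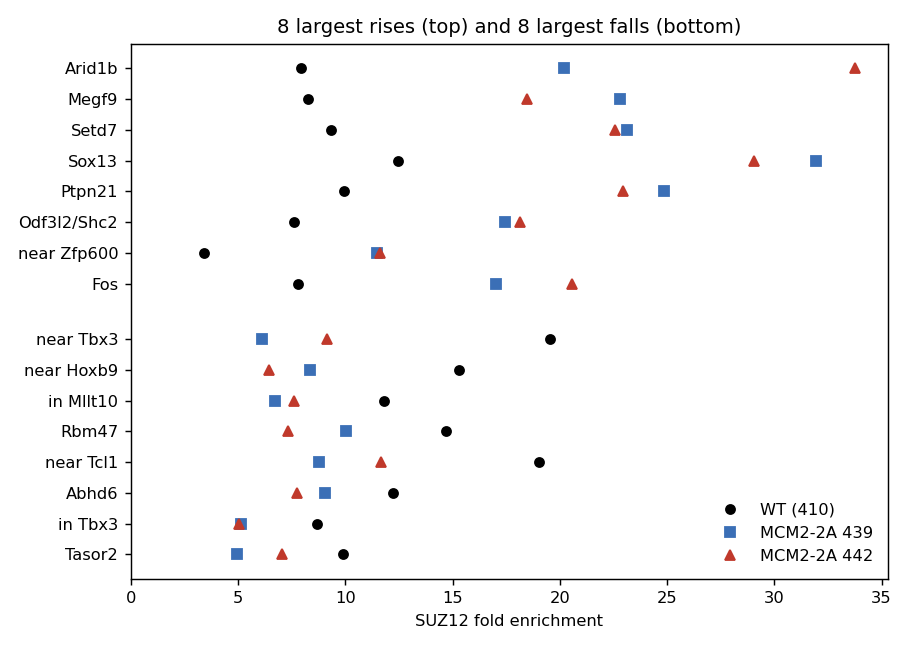
SUZ12 fold enrichment (x axis) in WT clone 410 (circles) and the MCM2-2A clones 439 (squares) and 442 (triangles) at the 8 sites with the largest rise in rank in both clones (top) and the 8 with the largest fall (bottom), chosen by these values. Sites without a gene start are named by the gene they lie in or near. At all 8 rises both mutant values are above WT, from 3.42 to 12.4 in WT, and at all 8 falls both are below WT, from 8.66 to 19.5 in WT.

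In the lists, rises and falls were few, as they were among all 1417 sites (11.0% and 5.15%). Of formative and primed genes Dnmt3a and Grhl2 rose and none of the 15 fell. Of the 4 pluripotency genes Klf4 fell and none rose. In the Bmp, Nodal and TGF-beta list Smad6 (48.4, 83.5 and 66.5) and Bmpr2 rose and Inhbb (33.8, 23.2 and 24.6) fell. In the Wnt list Tcf7l2 (9.68, 19.08 and 15.0) rose and Wnt10a (33.3, 26.8 and 20.3) fell. Dusp7, an ERK phosphatase gene (11.5, 21.6 and 28.7), rose, as did Gli3, a Hedgehog effector (20.4, 32.3 and 26.6), Lfng, a modifier of Notch (33.8, 53.7 and 42.4), and Gbx2, a neural regulator (29.0, 43.8 and 50.02). Gadd45b (14.0, 9.67 and 11.7) and the imprinted Zdbf2 (8.21, 6.65 and 7.44) fell. None of the 32 Hox genes, in 9 sites, or the 14 mesoderm and endoderm regulators rose or fell. The median WT rank of these genes was 0.962 and 0.897, and a site ranked above 0.9 cannot rise by over 0.1.

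Sites bound in both mutant clones and not called in WT overlapped WT H3K27ac in 412 cases. These were narrower (median 1747.5 bp) and weaker (median 6.36 in clone 439 and 6.89 in clone 442) than the 1417 common sites with H3K27ac, and more of each was acetylated (median 29.2%). They were chosen for lacking a WT call and merge peaks of the mutant lists only, so the choice itself bears on strength and width. The acetylated share is taken over that width. H3K27me3 was at 55.8% (51.0 to 60.5) of them.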

How the data were processed

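The series was read through 10 deposited peak lists: SUZ12 of clones 410, 439 and 442 (6298, 7571 and 7840 peaks), WT H3K27ac, and WT H3K4me3, H3K27me3 and H3K9me3 of the original and the rescue experiment. Per the labels the authors' processing used mm10, cutadapt 2.5, BWA 0.7.15, Picard 2.20.7 and MACS2 2.1.0. The reads depth behind the lists is unknown here. The deposited narrow lists hold a score, a fold enrichment ratio, and −log10 p and −log10 q per peak, and the deposited broad lists hold scores of unknown scale whose strength was not used. Replicates were combined by the authors, so no test was made.

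SUZ12 peaks were merged by overlap of at least 1 bp (Python 3 with pandas 2.3.3), a site's strength was the fold enrichment of its strongest peak, and strengths were ranked among common sites in each list. Gene starts came from RefSeq on GRCm38.p6: 17492 of 21900 protein-coding genes had a start of known strand, the others were placed by either end. Named sites were the 10 highest for WT SUZ12 and for H3K27ac, the 5 widest, the 8 largest rises and 8 largest falls, the 5 highest in H3K9me3, the 2 sites on each side of the overlap limit, and up to 4 genes per list by WT SUZ12, with further genes named after their values were seen. A few named sites and genes are not reported here. The members and lists were chosen with earlier results of these data known. The overlap and rank steps were tested on simulated data. Alternatives covered the overlap, merging, strength measure, rank threshold, rescue lists and distance to gene starts. H3K27ac and SUZ12 lists of other clones and strand-resolved libraries were not used here.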

Additional observations from a re-analysis of the deposited data

How the results depend on the processing

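No paired analysis was possible because each deposited list combines the replicates of a clone. A shift in rank cannot separate genotype from clone, and peak calls depend on read depth, which is unknown here. Of 95 values under 18 alternatives, 69 stayed within the interval of the reported value, or within 1.5 times a reported count, and kept their direction. The cause was not tested for those that moved. With H3K27ac peaks at or above the list's median fold enrichment, there were 933 sites, H3K4me3 was at 100%, H3K9me3 at 1.18%, the WT rank difference was -0.15 and the shift difference to clone 442 was 0.038. With an equal number of strongest SUZ12 peaks per list, H3K4me3 was at 100%, its difference from other common sites was 0.738 percentage points, and the width difference turned from -97 to 72.5 bp (chosen after seeing the data). The H3K4me3 difference was 0.630 with peaks merged within 1000 bp and 2.26 within groups of mean SUZ12 rank. The rescue lists gave a H3K4me3 difference of 1.12, H3K27me3 at 82.8% and H3K9me3 at 7.41%. With a mark required over at least 50% of the site, H3K4me3 was at 89.3%, its difference was 32.8 and H3K9me3 was at 0.565%. Rank changes counted in clone 442 alone gave 349 rises and 206 falls, and in clone 439 alone 254 and 186. A rank change over 0.05 gave 290 rises and 184 falls, and over 0.2 gave 36 and 11. These counts are of sites with H3K27ac alone. The matching shares over all common sites were not computed, so the counts cannot be set against a background. A gene start or, for genes of unknown strand, either end lay inside 71.8% of sites, and 59.4% had a start of known strand within 1000 bp (chosen after seeing the data).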
